A study of Mus musculus with 16 samples.

Results

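The miR-23a mimic, a synthetic double-stranded copy of a microRNA, was compared with a control mimic in mouse CD4+ T cells. The comparison was chosen by the transfected mimic: 4 libraries received miR-23a and 4 the control mimic, 8 of the 16 libraries of the series, and the 4 miR-24 and 4 miR-27a libraries were used as further reference. Every group carried the same background: C57BL/6 cells with Dgcr8 f/f alleles deleted by a Cre under CD4 control, no T-bet (Tbet-/-, the gene Tbx21), and a RosaYFP reporter by whose signal recombined cells were sorted. CD4+ cells of spleen and lymph nodes were activated through CD3 and CD28 for 3 days with 10 U/ml of IL-4, kept for 2 further days in 20 U/ml of IL-2, and transfected on days 1 and 4 with 500 nM of mimic. The labels speak of at least triplicates without naming the mouse behind a library, so the p-values measure the spread between libraries.

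A microRNA is loaded into an Argonaute protein and pairs with messenger RNAs mainly through its seed, the bases near its 5′ end. Paired messages, most often bound in the 3′ UTR, are translated less and lose their poly(A) tail, so their level drops. Dgcr8 is the partner of Drosha, the enzyme that cuts most microRNA precursors, and cells that lost it hold few microRNAs of their own against which an added mimic must compete. miR-23a is made from 1 transcript together with miR-27a and miR-24, and in T cells it has been studied for limiting effector functions and cell death.

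The mature sequences are shown because the search for target sites rests on them. They are from RefSeq (GRCm38.p6), 5′ to 3′, with the seed (bases 2 to 8) in capitals:
miR-23a-3p: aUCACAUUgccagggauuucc
miR-23a-5p: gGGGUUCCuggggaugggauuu
miR-27a-3p: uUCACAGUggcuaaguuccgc
miR-24-3p: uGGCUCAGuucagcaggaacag
The miR-23a-3p sequence lies at chr8:84208563-84208583 on the plus strand. Which arm or sequence the mimic had is not in the labels, and the 3p arm was assumed. The seed of miR-23a-3p differs from that of miR-27a-3p and of miR-24-3p, so the 3 mimics were searched with different motifs. On the message, an 8mer site for miR-23a-3p reads AATGTGAA, a 7mer-m8 site is its first 7 letters and a 7mer-A1 site its last 7. The 8mer for miR-27a-3p, ACTGTGAA, ends in the same TGTGAA, so these motifs are partly alike. Each gene was put in its best class by reading the transcript strand of its longest annotated 3′ UTR.

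Reads counted in genes ranged from 4086654 to 12582408 in the miR-23a libraries and from 7272860 to 11367506 in control replicates 2 to 4, but control replicate 1 held only 51474. A single read in that library was worth 16.3 CPM (read counts scaled to library size and TMM factor), so its low values are coarse. Dgcr8 stood at 57.2, 55.1, 46.6 and 51.1 CPM with miR-23a and 114, 48.8, 34.1 and 32.5 with the control mimic (values are in replicate order, throughout), and counts over the whole gene do not show whether its floxed part is gone. Tbx21 was at or below 5.20 CPM in all 8 libraries. The 10 CD4 T cell markers in the files summed to 3849 to 4658 CPM with miR-23a and 3354 to 5082 with the control mimic. Summed markers of other cells were low: B cells 3.29 to 10.7 against 0 to 12.4 CPM, myeloid cells 4.81 to 18.5 against 0 to 13.9, CD8 T cells 8.88 to 12.8 against 0 to 31.8, and natural killer cells 0 to 0.264 against 0. Class II presentation genes summed to 52.8 to 183 CPM against 32.5 to 119.9, and dendritic cell markers to 40.1 to 57.4 against 32.6 to 56.1. Of the erythroid and platelet markers, 6 of 8 had no read in either group, among them all 4 haemoglobin genes, and the others summed to 5.50 to 8.88 against 0 to 5.10 CPM. Reads on Rn45s, the ribosomal RNA precursor, varied from 16457 to 112877 CPM with miR-23a and from 3327 to 46068 with the control mimic. The part of the cell type markers in the results was not tested.

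In the main model far more genes were called lower than higher, but fold changes over all genes were more often positive than negative. Of all fold changes, 6856 were positive and 6096 negative. TMM scaling centres the fold changes, so this split cannot show whether the response as a whole leaned. Of 12952 genes tested, 50 (0.386%) fell and 5 (0.0386%) rose with miR-23a at an adjusted p under 0.05, in a model of group and replicate number over all 16 libraries. The log2 fold changes of those that fell ran from -3.62 to -0.80, with a median of -1.35 against 0.04 over all genes tested. The miR-23a libraries lay below control replicates 2 to 4 without overlap for 45 of the 50, and for 625 genes (4.83%) of all tested. At an unadjusted p under 0.05, 1030 genes (7.95%) were lower and 1172 (9.05%) higher. Without the replicate number in the model, 17 genes fell and 0 rose, with 661 lower and 795 higher at an unadjusted p under 0.05. Without control replicate 1, 35 fell and 0 rose, with 1130 lower and 1122 higher at an unadjusted p under 0.05. At that level 877 were lower and 807 higher with both libraries numbered 1 left out, and 841 and 700 with limma voom. The excess of higher genes was thus absent in these fits, while DESeq2 kept it (949 lower, 1413 higher). Among the fits that left out 1 library, the counts were lowest without control replicate 3 (12 fell, 0 rose) and highest without control replicate 2 (155 fell, 179 rose). DESeq2 on all libraries called 192 lower and 172 higher. With Rn45s left out of the counts, 52 genes fell, 48 of the 50 among them, and 6 rose. Leaving out miR-23a replicate 1, 2, 3 or 4 gave 27, 73, 14 and 24 genes that fell and 0, 25, 3 and 0 that rose, and without control replicate 4 these counts were 27 and 1. Of the 50 genes, 25, 41, 14 and 23 were called without miR-23a replicate 1, 2, 3 or 4, and 33, 49, 12 and 24 without control replicate 1, 2, 3 or 4. Those not called without control replicate 1 were Tmed5, Nqo1, Hmgn2, Il9, Arrdc3, Cript, Etnk1, Fmr1, Fth1 and Myo6. The others were P2ry10, Ptger4, Rap1a, Rcn1, Tug1, Uhrf1bp1l and Yod1. In that edgeR fit their adjusted p ran from 0.0503 to 0.0686. All 50 genes kept a negative fold change in every alternative that gave them an adjusted p. DESeq2 gave none for 1110020A21Rik. The fit of only the miR-23a and control libraries gave none for 1110020A21Rik and Il9. A core of 10 fell whichever of the 8 libraries was left out: Atp5f1, Rps29, Sft2d1, Zfp395, Cggbp1, Auh, Srgn, Ttc7b, Nek7 and Top1. The 17 that also fell without the replicate number were these except Srgn, with Sh3bgrl, Ndufa3, Ndufs4, Timm8b, Hmgn2, Arpc1a, Ifngr2 and Snx5. For every other called gene given with an adjusted p, the adjusted p without the replicate number (the block) follows it. In RNA from many cells, less RNA per cell and fewer cells of a type cannot be told apart.

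Most of the genes that fell carried a site for miR-23a-3p. Of the 48 with a searched 3′ UTR, 27 held an 8mer, 7 a 7mer-m8 as best site, 5 a 7mer-A1 and 9 no site. Among all 12015 genes searched, 7.23% held an 8mer, 9.80% a 7mer-m8, 8.25% a 7mer-A1 and 74.7% none. Of the 4 genes that rose and had a searched UTR, 1 held a site. The shift reached well past the called genes: the median log2 fold change was -0.28 for the 869 genes with an 8mer, -0.12 for the 1177 with a 7mer-m8, -0.06 for the 991 with a 7mer-A1 and 0.12 for the 8978 with none. It was -0.48 for the 73 genes with 2 or more 8mers, of which 5 fell. In the 8mer class 73.2% of genes had a negative fold change, against 40.8% in the class with no site.

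**Figure D1:**
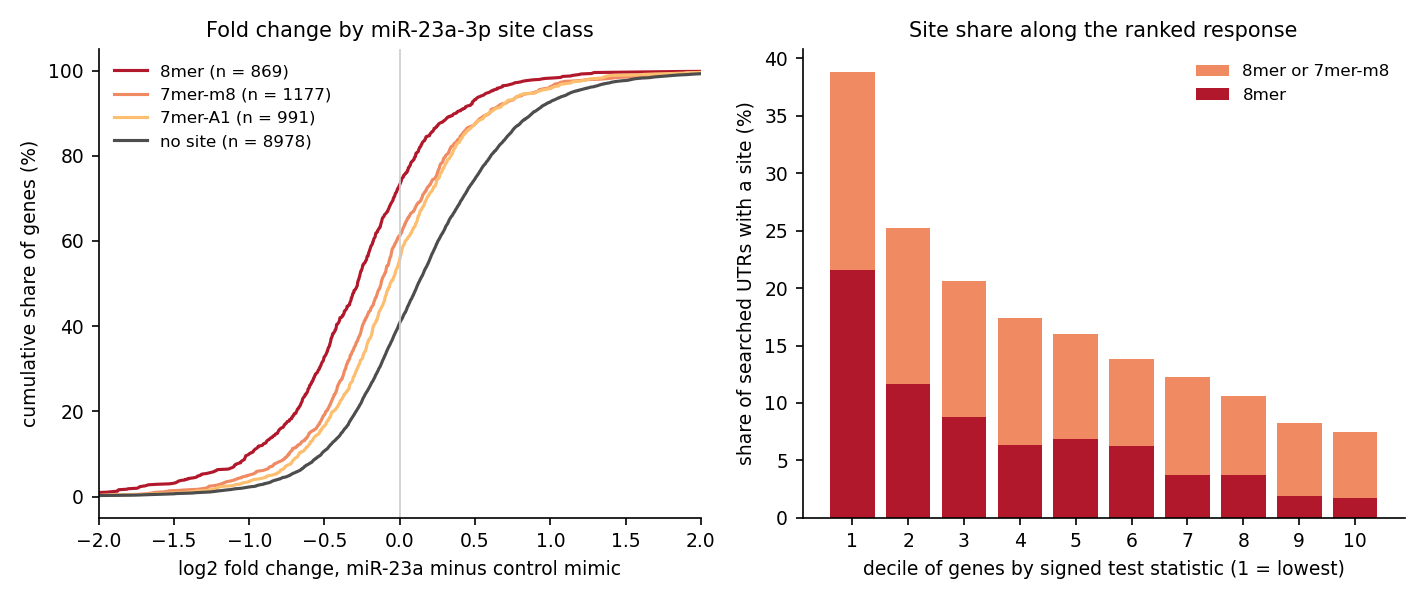
Left, cumulative share of genes (%) against the log2 fold change between miR-23a and control mimic, shown from -2 to 2, for the 4 site classes; the 8mer curve (median -0.28) lies to the left of the curve of genes with no site (median 0.12), and both 7mer curves lie between them. Right, share of searched 3′ UTRs (%) with an 8mer (dark) or with an 8mer or 7mer-m8 (full bar) in each decile of genes ranked by signed test statistic; the 8mer share runs from 21.6% in the lowest decile to 1.76% in the highest.

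Along the ranking of all genes by signed test statistic, the share with an 8mer was 21.6% in the lowest decile, 11.6% in the next, 6.88% in the fifth and 1.76% in the highest. Genes with a site have longer 3′ UTRs, with a median of 2641 bases in the 8mer class against 947 in the class with none, so the classes were also compared within 4 bins of UTR length. The 8mer median minus the no-site median was -0.67, -0.39, -0.42 and -0.28 from the bin of shortest to that of longest UTRs. For the 7mer-m8 class the medians were 0.24, -0.12, -0.15 and -0.12, against 0.22, 0.13, 0.07 and 0.02 with no site, so it was not below the no-site class in the bin of shortest UTRs. Genes with an 8mer for the other arm, miR-23a-5p, had a median of 0.05 (417 genes), and those with an 8mer for miR-24-3p a median of 0.03 (1074 genes). For miR-27a-3p it was -0.07 (792 genes). Genes with no site for the seed in question stood at 0.05 for miR-23a-5p, 0.04 for miR-24-3p and 0.09 for miR-27a-3p.

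The other mimics were measured against the same control libraries, so their values are set side by side. Genes with a miR-23a-3p 8mer had a median log2 fold change of -0.12 with miR-24 and -0.09 with miR-27a against the control mimic, while those with no site stood at 0.09 and 0.09. Set directly against miR-24, the 8mer genes had a median of -0.18 with miR-23a and the no-site genes 0.02, and against miR-27a these medians were -0.17 and 0.04. Per library, the 8mer median minus the no-site median was -0.54, -0.28, -0.48 and -0.41 with miR-23a in replicate order, and -0.02, -0.26, -0.34 and -0.27 with miR-24. It was -0.26, -0.21, -0.33 and -0.05 with miR-27a, and 0.34, -0.07, -0.09 and 0.17 with the control mimic. These values are relative to the mean of control replicates 2 to 4, so those libraries are part of their own reference. All 4 miR-23a libraries were below all 4 control libraries, whereas miR-23a replicate 2 lay within the range of both other mimics. Every miR-24 and miR-27a library also had a negative value. Restricted to genes whose mean log2-CPM exceeded 5, where the shallow control library is less coarse, control replicate 1 stood at -0.05 and the miR-23a libraries at -0.49, -0.27, -0.39 and -0.38.

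**Figure D2:**
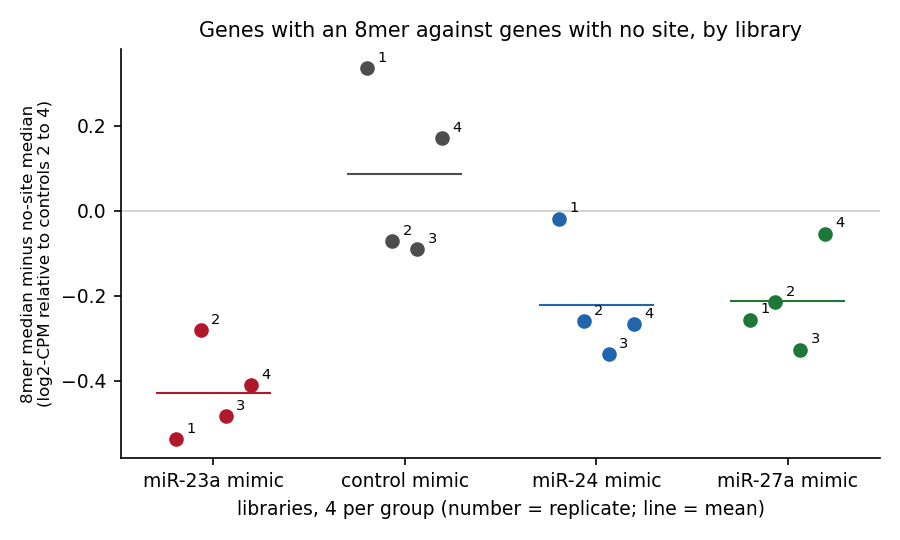
Median of genes with a miR-23a-3p 8mer minus median of genes with no site, in log2-CPM relative to the mean of control replicates 2 to 4, for each of the 16 libraries; points are libraries numbered by replicate and lines are group means. The miR-23a libraries run from -0.54 to -0.28 and the control libraries from -0.09 to 0.34, with miR-24 and miR-27a from -0.34 to -0.02, overlapping the highest miR-23a library.

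The 8mer sites of the 6 genes with the smallest adjusted p among called genes with an 8mer are shown because these genes also fell in every fit that left out 1 library. Each line gives the transcript strand of GRCm38 (GENCODE M21 3′ UTRs), 5′ to 3′, with the 8mer in capitals:
Rps29: caaagaataaaAATGTGAAgaactttaa
Sft2d1, site 1: acagcttttgaAATGTGAAtatttaaggta
Sft2d1, site 2: ttaactttaaaAATGTGAAactttatatac
Cggbp1: ggcactgatgaAATGTGAAgtggctattct
Zfp395: gattttttttaAATGTGAAatgaaatgtaa
Ttc7b: gcccaaaaccaAATGTGAAttttctgtttc
Nek7: tgcaactattaAATGTGAAagcatagaggt
The 8mers lie in 3′ UTR exons at chr12:69157731-69157738, - strand (Rps29), chr17:8327233-8327240, + strand and chr17:8327336-8327343, + strand (Sft2d1), chr16:64859252-64859259, + strand (Cggbp1), chr14:65398852-65398859, + strand (Zfp395), chr12:100301111-100301118, - strand (Ttc7b) and chr1:138486427-138486434, - strand (Nek7). Counted from the first UTR base, they start at base 75 of 91 in Rps29, 3176 of 3431 in Cggbp1, 2522 of 2600 in Zfp395, 431 of 779 in Ttc7b, 566 of 4125 in Nek7, and 239 of 448 and 342 of 448 in Sft2d1. A site in such letters is a match, and whether the mimic was bound there was not measured.

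Zfp395, a zinc finger transcription factor gene, stood at 61.7, 68.1, 82.1 and 79.8 CPM with miR-23a and 163, 163, 215 and 216 with the control mimic. Every miR-23a library was below every control library (log2 fold change -1.35, SE 0.18, adjusted p = 0.00105). Cggbp1 encodes a protein that binds CGG repeats in DNA and measured 98.3, 134, 84.7 and 128 against 309, 304, 287 and 254 CPM. Its groups were also apart (log2 fold change -1.38, SE 0.18, adjusted p = 0.00105), and it ranged from 216 to 276 CPM with miR-24 and 216 to 299.7 with miR-27a, all above the miR-23a libraries. Nek7, a kinase that is also part of the NLRP3 inflammasome, stood at 90.9, 109, 108 and 156 against 326, 381, 248 and 244 CPM. The highest miR-23a library was replicate 4, still below the lowest control (log2 fold change -1.32, SE 0.20, adjusted p = 0.00427). Ttc7b, which helps to hold a phosphatidylinositol 4-kinase at the plasma membrane, was at 12.6, 12.1, 10.0 and 7.64 against 48.8, 35.8, 25.04 and 32.8 CPM. It fell (log2 fold change -1.74, SE 0.25, adjusted p = 0.00282) and was also lower than with miR-24 (adjusted p = 0.0128) and with miR-27a (adjusted p = 0.0255). Top1, DNA topoisomerase I, which relaxes supercoiled DNA and carries 2 8mers, measured 65.3, 65.4, 56.3 and 68.3 against 130.2, 124, 153 and 218 CPM. The miR-23a libraries were close together and apart from all controls (log2 fold change -1.34, SE 0.21, adjusted p = 0.00427), but it did not pass against miR-24 (adjusted p = 0.687), whose libraries held 58.7 to 108 CPM.

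**Figure D3:**
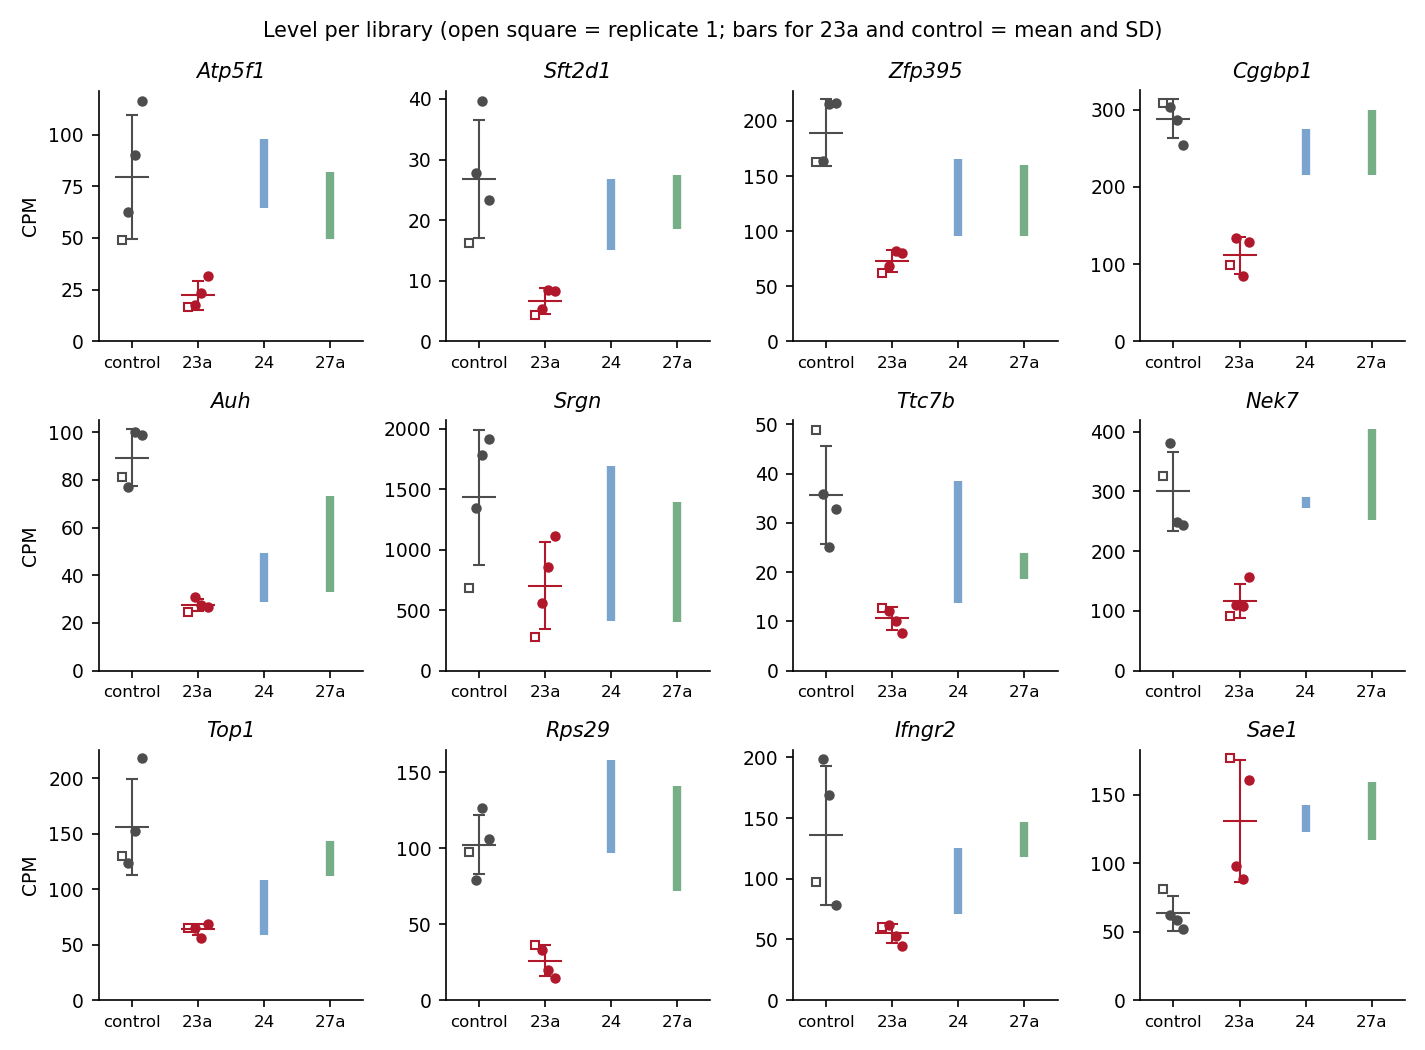
Level (CPM) of 12 genes per library: grey points control mimic, red points miR-23a mimic, with mean and SD (n = 4) and replicate 1 as an open square; blue and green bars span the lowest to highest of the 4 miR-24 and the 4 miR-27a libraries. In 10 of the panels, all but Srgn and Sae1, every miR-23a library lies below every control library; in Srgn they overlap, and in Sae1 every miR-23a library lies above.

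Among mitochondrial genes, single subunits fell while the other tested members of their complexes did not pass. Atp5f1, subunit b in the stalk of ATP synthase, had the smallest p of all genes: 16.4, 17.5, 23.4 and 31.4 CPM with miR-23a against 48.8, 62.7, 89.99 and 116 with the control mimic (log2 fold change -1.89, SE 0.20, adjusted p = 0.000138). Its groups did not overlap, the miR-24 libraries held 64.7 to 98.2 CPM, and its UTR held a 7mer-A1 only. Of 17 ATP synthase subunits tested it was the 1 that fell, none rose, and the list's median log2 fold change was -0.09. Ndufa3, a small subunit of respiratory complex I with an 8mer, stood at 3.94, 4.55, 3.34 and 3.74 against 0, 17.5, 20.9 and 14.6 CPM. Control replicate 1 had 0 reads, where 1 read is worth 16.3 CPM, and the other controls were all higher than every miR-23a library (log2 fold change -2.05, SE 0.33, adjusted p = 0.00560). Ndufs4, a subunit needed to assemble complex I, held 24.0, 22.1, 18.3 and 17.9 against 32.6, 43.3, 58.6 and 49.2 CPM (log2 fold change -1.27, SE 0.24, adjusted p = 0.0194). They were 2 of 36 complex I subunits tested, none rose, and the list's median was 0.16. In complexes II, III and IV 0 of 25 passed, with Uqcrfs1, the Rieske protein of complex III and holder of an 8mer, at 36.4 to 49.7 against 56.3 to 93.2 CPM (log2 fold change -0.77, SE 0.21, adjusted p = 0.108) and Cyc1, cytochrome c1, at a log2 fold change of 0.86 (adjusted p = 0.156).

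Timm8b, which escorts proteins across the space between the mitochondrial membranes, measured 2.24, 3.42, 3.69 and 4.66 against 0, 10.2, 24.5 and 9.91 CPM. It fell (log2 fold change -1.87, SE 0.35, adjusted p = 0.0204), the 1 of 34 import and dynamics genes that did. Auh, an RNA-binding enzyme that acts in the breakdown of leucine, held 24.7, 30.7, 27.5 and 26.8 against 81.4, 77.0, 100.2 and 98.9 CPM and fell (log2 fold change -1.64, SE 0.22, adjusted p = 0.00105) without a site. Its miR-24 libraries were also low, at 28.7 to 49.3 CPM, and the direct difference from miR-24 did not pass (adjusted p = 0.155). It was the 1 called member of 31 genes of branched-chain amino acid and fatty acid breakdown, whose median was -0.07. Of 58 mitochondrial ribosomal proteins 0 passed, with a median of 0.19, and of 21 tricarboxylic acid cycle enzymes 0, with a median of 0.19.

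Genes of the ribosome and of chromatin gave some of the largest falls. Rps29, which is part of the small ribosomal subunit, stood at 36.4, 33.0, 20.0 and 14.6 CPM with miR-23a and 97.7, 79.3, 126 and 106 with the control mimic. All miR-23a libraries were below all others of the series, where it ranged from 97.0 to 158 with miR-24 and 71.8 to 141 with miR-27a (log2 fold change -2.15, SE 0.25, adjusted p = 0.000344). Rpl38, a protein of the large subunit, had no site and held 41.1, 21.6, 23.7 and 18.7 against 48.8, 56.2, 77.5 and 59.7 CPM (log2 fold change -1.32, SE 0.24, adjusted p = 0.0175, 0.0761 without the block). No other ribosomal protein passed, and the median of the 48 tested was 0.10. Hmgb2, a protein that bends DNA, measured 978, 662, 273 and 388 against 1579, 1438, 1408 and 2211 CPM (log2 fold change -1.75, SE 0.27, adjusted p = 0.00553, 0.258 without the block), and the groups did not overlap. Hmgn2, which binds nucleosomes, measured 75.4, 38.5, 41.9 and 61.1 against 212, 206, 195 and 86.3 CPM, with control replicate 4 well below the other controls (log2 fold change -1.62, SE 0.30, adjusted p = 0.0204). Its adjusted p was 0.0518 without control replicate 1, and ran from 0.00553 to 0.139 over the fits that left out 1 library. Hmgb2 and Hmgn2 both carry an 8mer, and Hmgn2 has been reported elsewhere as a miR-23 target. Of 23 histone and HMG genes tested, these 2 fell and 0 rose, and the median was -0.25. At an unadjusted p under 0.05, 6 were lower and 1 higher, against 7.95% and 9.05% of all genes. Per library, relative to the mean of control replicates 2 to 4, the median was 0.16, -0.42, -0.47 and -0.11 with miR-23a. With the control mimic it was -0.24, -0.20, 0.07 and 0.02, so the groups overlapped, with miR-23a replicate 1 above every control. Rps29, Rpl38, Hmgb2, Hmgn2 and Fth1 have near-identical processed copies in the genome, so their counts are uncertain where a read could be placed on more than 1 copy, although the files count reads without a unique placement on a summary line.

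On the list of the glutathione and thioredoxin systems, 3 genes fell in the model with the replicate number and 1 of these, Sh3bgrl, without it. Being on the list does not show that Sh3bgrl itself acts on oxidants or thiols. Nfe2l2 encodes NRF2, the transcription factor that turns on antioxidant genes, and held 128, 171, 92.6 and 96.9 CPM with miR-23a against 309, 301, 272 and 443 with the control mimic. The groups were apart (log2 fold change -1.52, SE 0.29, adjusted p = 0.0204, 0.174 without the block). Nfe2l2 was lower than with miR-24 (adjusted p = 0.0132), but the direct difference from miR-27a did not pass (log2 fold change -0.40, adjusted p = 0.536). The miR-27a libraries held 86.7 to 220 CPM, at a log2 fold change of -1.12 against the control mimic. Nqo1, a quinone reductase and known NRF2 target, held 7.71, 8.65, 9.06 and 11.2 against 16.3, 18.4, 62.6 and 27.6 CPM, with control replicate 3 the highest (log2 fold change -1.75, SE 0.36, adjusted p = 0.0320, 0.165 without the block). Sh3bgrl, a small thioredoxin-fold protein with an 8mer, held 20.0, 36.9, 32.2 and 31.5 against 97.7, 93.4, 146 and 193 CPM (log2 fold change -2.19, SE 0.35, adjusted p = 0.00627), and was lower than with miR-24 (log2 fold change -1.76, adjusted p = 0.00576) and miR-27a (-1.85, adjusted p = 0.00506). Of 34 genes of the glutathione and thioredoxin systems, these 3 fell and 0 rose, against 0.386% and 0.0386% of all genes. At an unadjusted p under 0.05, 11 were lower and 2 higher, against 7.95% and 9.05% of all genes. Whatever the p, 20 members had a negative fold change and 14 a positive one. The list's median was -0.28. Per library, relative to the mean of control replicates 2 to 4, it was -0.70, -0.72, 0.05 and -0.11 with miR-23a and -0.60, -0.20, 0.37 and -0.23 with the control mimic, so the groups overlapped. Within the pairs of like number the median difference was -0.27, -0.45, -0.24 and 0.16. Over all genes tested the shallow control replicate 1 itself stood at -0.98, and the other control libraries at 0.01, 0.02 and -0.02. The pair differences over all genes were 1.02, 0.00, 0.00 and 0.04, so list values that involve control replicate 1 are read beside that offset. Over the same control libraries the list's median was 0.22 for the miR-24 mimic and 0.11 for miR-27a. 5 of 34 held an 8mer or 7mer-m8. Fth1, the ferritin heavy chain that stores iron and is also an NRF2 target, is not on the list and was placed here after its values were seen. It held 313, 179, 248 and 316 against 358, 326, 943 and 618 CPM (log2 fold change -1.01, SE 0.22, adjusted p = 0.0478, 0.269 without the block). A change in NRF2 activity was not tested.

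On the lists of T cell receptor signalling, IL-2 and STAT5 signalling, inhibitory and costimulatory receptors, and chemokine receptors and integrins, 0 genes passed. The next 7 genes fell but were grouped here after their values were seen. Srgn encodes serglycin, the proteoglycan of secretory granules, and held 280.2, 559.5, 857 and 1109 against 684, 1346, 1786 and 1911 CPM, so the groups overlapped while each miR-23a library was below the control of the same number (log2 fold change -1.09, SE 0.16, adjusted p = 0.00282, 0.430 without the block). Cd48, a ligand of CD2 and CD244, held 76.7, 124, 80.7 and 113 against 163, 233, 187 and 223 CPM (log2 fold change -1.05, SE 0.17, adjusted p = 0.00553, 0.0761 without the block). Its groups were apart, although the miR-27a libraries stood as low, at 82.7 to 132 CPM. Cd53, a tetraspanin of white blood cells, held 411, 883, 1354 and 994 against 684, 1605, 2482 and 2336 CPM and overlapped its controls only through replicate 1 (log2 fold change -0.95, SE 0.18, adjusted p = 0.0196, 0.411 without the block). Ifngr2, the signalling chain of the interferon gamma receptor with 2 7mer-m8 sites, held 60.6, 61.9, 52.9 and 44.8 against 97.7, 199, 169 and 78.3 CPM (log2 fold change -1.31, SE 0.22, adjusted p = 0.00627). It was below the control, miR-24 and miR-27a libraries without overlap. Ptger4, the EP4 receptor for prostaglandin E2, held 59.3, 66.5, 58.5 and 48.6 against 147, 133, 76.1 and 132 CPM (log2 fold change -1.03, SE 0.21, adjusted p = 0.0295, 0.0761 without the block). Pde4b, which degrades cyclic AMP, held 55.2, 88.6, 90.9 and 50.5 against 65.1, 185, 186 and 198 CPM, with control replicate 1 far below the other controls (log2 fold change -1.32, SE 0.26, adjusted p = 0.0240, 0.0869 without the block). Its UTR held 3 8mers starting at bases 1580, 1600 and 1627 of 1920. P2ry10, a receptor for lysophosphatidylserine, held 41.8 to 77.9 against 92.2 to 149 CPM (log2 fold change -1.10, SE 0.24, adjusted p = 0.0478, 0.244 without the block).

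Among genes of cell shape and adhesion, Arpc1a, a subunit of the ARP2/3 complex that nucleates actin branches, stood at 25.7, 24.1, 14.7 and 28.3 against 65.1, 64.6, 80.7 and 56.8 CPM. It had no site and its groups were apart (log2 fold change -1.52, SE 0.25, adjusted p = 0.00591). Rap1a, a small GTPase that activates integrins, held 221 to 331 against 537 to 1237 CPM (log2 fold change -1.37, SE 0.28, adjusted p = 0.0368, 0.0761 without the block). Marcks, which links actin to the membrane, held 44.5, 78.6, 102 and 136 against 81.4, 93.8, 368 and 399 CPM: the groups overlapped, and miR-23a was lower within each replicate number (log2 fold change -1.24, SE 0.22, adjusted p = 0.0141, 0.336 without the block). Myo6, a myosin that moves towards the minus end of actin, held 107, 95.6, 71.1 and 39.7 against 228, 322, 184 and 106 CPM (log2 fold change -1.40, SE 0.28, adjusted p = 0.0287, 0.311 without the block), and stood higher than with miR-24 (adjusted p = 0.0111), where it held 23.1 to 45.1 CPM. Of 47 actin and migration genes on the list 0 passed, with a median of 0.11.

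In membrane traffic, Sft2d1, a Golgi vesicle protein with 2 8mers, stood at 4.30, 5.24, 8.44 and 8.33 CPM with miR-23a and 16.3, 27.8, 39.6 and 23.3 with the control mimic. Every miR-23a library was below all 12 others of the series (log2 fold change -2.05, SE 0.26, adjusted p = 0.000922; 15.0 to 26.8 CPM with miR-24 and 18.5 to 27.4 with miR-27a). Tmed5, a cargo receptor between the endoplasmic reticulum and the Golgi, held 44.7, 112, 48.6 and 80.1 against 212, 203, 175 and 393 CPM (log2 fold change -1.81, SE 0.36, adjusted p = 0.0340, 0.127 without the block), but adjusted p was 0.188 without control replicate 4, the highest control, and the differences from miR-24 and miR-27a did not pass (adjusted p = 0.139 and 0.2502). Snx5, a sorting nexin that acts with retromer, held 98.5, 127, 125 and 118 against 163, 251, 333 and 343 CPM and fell (log2 fold change -1.28, SE 0.23, adjusted p = 0.0147). Stx12, an endosomal SNARE, held 69.1, 82.2, 84.4 and 109 against 147, 226, 209 and 136 CPM (log2 fold change -1.05, SE 0.20, adjusted p = 0.0204, 0.0524 without the block). Tmem30a, a partner of lipid flippases, held 51.8 to 131 against 163 to 282 CPM (log2 fold change -1.17, SE 0.20, adjusted p = 0.0118, 0.118 without the block). Etnk1, an ethanolamine kinase of phospholipid synthesis with 4 8mers, held 120.4, 116, 122 and 141 against 195, 365, 224 and 192 CPM (log2 fold change -0.97, SE 0.20, adjusted p = 0.0365, 0.0869 without the block), below all libraries of miR-24 (281 to 354) and miR-27a (202 to 314). On the gene lists, 1 of 49 Golgi transport genes fell, with a median of 0.03, and 1 of 54 endosome genes, with a median of -0.05.

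The other genes that fell have varied roles. Fmr1, the RNA-binding protein lost in fragile X syndrome, held 118 to 184 against 206 to 311 CPM (log2 fold change -0.80, SE 0.17, adjusted p = 0.0364, 0.218 without the block), and the long noncoding RNA Tug1 123 to 278 against 391 to 439 (log2 fold change -0.91, SE 0.18, adjusted p = 0.0295, 0.166 without the block). Tnks2, a tankyrase with an 8mer, held 409, 327, 286 and 258 against 765, 555, 611 and 665 CPM (log2 fold change -1.05, SE 0.19, adjusted p = 0.0175, 0.172 without the block). Yod1, a deubiquitinase, held 7.97, 22.1, 10.4 and 21.1 against 81.4, 34.0, 44.0 and 57.6 CPM (log2 fold change -1.67, SE 0.33, adjusted p = 0.0292, 0.0761 without the block), and the miR-24 and miR-27a libraries were also below the controls, at 14.8 to 26.1 and 21.3 to 31.5 CPM. Tfpi, an inhibitor of blood coagulation, held 3.85, 0.911, 4.49 and 5.73 against 0, 7.35, 18.9 and 12.0 CPM (log2 fold change -1.74, SE 0.35, adjusted p = 0.0295, 0.263 without the block), again with 0 reads in control replicate 1. Nr6a1, an orphan nuclear receptor with 2 8mers, held 1.25, 1.82, 3.69 and 4.81 against 0, 7.25, 18.1 and 16.5 CPM (log2 fold change -2.02, SE 0.33, adjusted p = 0.00582, 0.211 without the block). Pnpla8, a mitochondrial and peroxisomal phospholipase, stood at 13.0 to 46.6 against 50.7 to 102 CPM (log2 fold change -1.26, SE 0.22, adjusted p = 0.0141, 0.244 without the block) and was lower than with both other mimics. Ipmk, an inositol phosphate kinase, stood at 29.7 to 46.1 against 32.6 to 118 CPM (log2 fold change -1.27, SE 0.27, adjusted p = 0.0447, 0.255 without the block), and Rcn1, a calcium-binding protein of the endoplasmic reticulum, at 2.96 to 18.7 against 14.7 to 48.8 (log2 fold change -1.68, SE 0.36, adjusted p = 0.0450, 0.425 without the block). Arrdc3, an arrestin-like protein, stood at 17.8 to 35.3 against 27.0 to 81.4 CPM (log2 fold change -1.05, SE 0.21, adjusted p = 0.0295, 0.341 without the block). The log2 fold changes of the last 4 called genes were -1.59 in Zfp87 (adjusted p = 0.0279, 0.258 without the block), -1.06 in Uhrf1bp1l (adjusted p = 0.0451, 0.174 without the block), -1.01 in Cript (adjusted p = 0.0295, 0.258 without the block) and -3.62 in 1110020A21Rik (adjusted p = 0.0229, 0.174 without the block), the last at 0.0764 to 0.440 against 0 to 5.04 CPM.

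On the lists of T helper cell identity Il9 alone passed. Il4, the Th2 cytokine, stood at 7.08, 22.8, 27.2 and 21.2 CPM with miR-23a and 16.3, 37.6, 30.7 and 34.4 with the control mimic. The miR-23a libraries were below control replicates 2 to 4, and its log2 fold change of -0.59 (SE 0.26) did not pass (adjusted p = 0.259). Gata3, the master regulator of Th2 cells, held 212, 191, 404 and 274 against 179, 181, 453 and 309 CPM, with overlapping groups and a log2 fold change of 0.02 (SE 0.21, adjusted p = 0.984). Maf, an activator of Il4 that carries an 8mer, held 75.9, 180.1, 187 and 182 against 179, 266, 548 and 494 CPM and was below controls 2 to 4, with a log2 fold change of -1.21 (SE 0.30) that did not pass (adjusted p = 0.0739). Of 35 Th2 genes 1 fell, Il9, which held 0.717, 0, 0.528 and 3.21 CPM against 0, 0.490, 3.96 and 39.8: the difference rests on control replicate 4 (log2 fold change -2.99, SE 0.60, adjusted p = 0.0295, 0.380 without the block, 0.306 without that library). The median of the list was 0.01, and against the same control libraries it was -0.38 for the miR-24 mimic and -0.26 for miR-27a. Of 18 Th1 and cytotoxic genes tested 0 passed, and the median was -0.34, the lowest of the lists with 5 or more members tested. At an unadjusted p under 0.05, 5 were lower and 0 higher, against 7.95% and 9.05% of all genes. Per library it was -0.05, 0.19, -0.51 and -0.41 with miR-23a and -0.18, 0.34, -0.17 and -0.14 with the control mimic, so the groups overlapped. Control replicate 1, the first of these control values, stood at -0.98 over all genes tested. Stat4, which transmits IL-12 signals, stood at 29.6 to 142 against 78.9 to 215 CPM (adjusted p = 0.131) and Ccl5, a chemokine of effector cells, at 1.14 to 5.01 against 0 to 7.92 (adjusted p = 0.153). The summed CD8 T cell markers, which share these genes' direction, were 8.88 to 12.8 CPM with miR-23a and 14.1 to 31.8 in control replicates 2 to 4, and their part was not tested. Medians were -0.10 for 18 Th17 and regulatory T cell genes, 0.01 for 27 genes of IL-2 and STAT5 signalling, 0.05 for 45 of T cell receptor signalling, -0.04 for 32 inhibitory and costimulatory receptors and -0.03 for 30 of quiescence and homing, with 0 called in each. In the list of quiescence Satb1, a chromatin organiser of T cells with 2 8mers, held 1327, 1448, 1552 and 1532 against 1628, 2996, 2241 and 2965 CPM (log2 fold change -0.72, adjusted p = 0.0737).

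The 23 tested genes that other work has reported as miR-23 targets had a median log2 fold change of -0.27. Over the same control libraries their median was -0.09 with miR-24 and -0.26 with miR-27a, so the shift was not particular to miR-23a. Of the 23 only Hmgn2 passed, though not without control replicate 1 (adjusted p = 0.0518). At an unadjusted p under 0.05, 9 were lower and 1 higher, against 7.95% and 9.05% of all genes, and 16 of 23 held an 8mer or 7mer-m8. Xiap, an inhibitor of caspases and a ubiquitin ligase with an 8mer, held 116, 152, 81.2 and 130.1 CPM with miR-23a and 212, 196, 202 and 346 with the control mimic. The groups did not overlap, but its log2 fold change of -1.06 (SE 0.24) stood just outside the threshold (adjusted p = 0.0623). Against the control mimic Xiap stood at -0.48 with miR-24 and -0.46 with miR-27a. The direct differences of miR-23a from these mimics did not pass (adjusted p = 0.179 and 0.208). Of 40 ubiquitin-conjugating enzymes and ligases 0 passed. At an unadjusted p under 0.05, 10 were lower and 0 higher, against 7.95% and 9.05% of all genes. The median was -0.16, beside -0.15 with miR-24 and -0.13 with miR-27a. In that list Ube2b, a ubiquitin-conjugating enzyme of the RAD6 type, held 86.9, 120.5, 131 and 151 against 244, 189.7, 210.3 and 230.1 CPM (log2 fold change -0.79, adjusted p = 0.0624) and had no site. Of 33 BCL2 family and caspase genes 0 passed, with a median of 0.04.

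Of the 5 genes that rose, 1 was also higher than with both other mimics. Sae1, a subunit of the enzyme that activates SUMO, stood at 177, 97.9, 88.1 and 161 CPM with miR-23a and 81.4, 61.9, 58.6 and 51.8 with the control mimic. Every miR-23a library was above every control (log2 fold change 1.05, SE 0.22, adjusted p = 0.0333, 0.0761 without the block), but so were the miR-24 libraries at 122 to 143 and the miR-27a libraries at 117 to 159.7. Scd2, a desaturase that makes monounsaturated fatty acids, held 53.6, 84.3, 121 and 423 against 32.6, 43.8, 82.2 and 103 CPM, with overlapping groups and replicate 4 far above the rest (log2 fold change 1.15, SE 0.24, adjusted p = 0.0401, 0.524 without the block). It was higher with miR-24 than with miR-23a (adjusted p = 0.00545) and was the 1 called member of 18 genes of fatty acid synthesis, whose median was 0.23. Mid1ip1, an activator of acetyl-CoA carboxylase, held 6.36, 2.05, 4.05 and 7.26 against 0, 0.294, 1.89 and 0.762 CPM (log2 fold change 2.53, SE 0.52, adjusted p = 0.0357, 0.258 without the block). 9030617O03Rik held 89.2, 76.5, 110.4 and 143 against 48.8, 49.1, 67.7 and 60.3 CPM (log2 fold change 0.92, SE 0.19, adjusted p = 0.0368, 0.311 without the block) and was the 1 gene also higher than with both miR-24 (adjusted p = 0.000350) and miR-27a (adjusted p = 0.0280). 5830418P13Rik held 0.627, 0.228, 3.25 and 3.59 against 0, 0.0980, 0.0901 and 0 CPM (log2 fold change 4.73, SE 1.01, adjusted p = 0.0417, 0.269 without the block), where each nonzero control value is 1 read. None of the 5 rose without the replicate number in the model or without control replicate 1.

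At the upper end of the ranking no further gene passed, and the lists there are given by their counts and medians. Of 31 tested p53 targets, 12 were higher and 1 lower at an unadjusted p under 0.05, against 9.05% and 7.95% of all genes, with a median of 0.34 (0.26 to 0.46 under the alternatives). Per library it was 0.19, 0.05, 0.63 and 0.48 with miR-23a and -0.89, -0.01, 0.28 and -0.18 with the control mimic, so the groups overlapped. Within the numbers the median difference was 0.93, 0.24, 0.39 and 0.63, beside 1.02, 0.00, 0.00 and 0.04 over all genes tested. The difference in number 1 was thus no larger than that of all genes. Over the same controls the p53 median was 0.10 for miR-24 and 0.42 for miR-27a. Plk2, a kinase induced by p53, stood at 23.7, 17.99, 26.6 and 22.8 against 0, 7.06, 17.0 and 9.91 CPM (log2 fold change 1.25, adjusted p = 0.0684). Cdkn1a, the inhibitor p21, stood at 392, 219, 468 and 686 against 97.7, 167, 309 and 147 CPM, where the groups overlapped (log2 fold change 1.25, adjusted p = 0.140). Of 32 ribosome biogenesis factors 11 were higher and 1 lower at that level, with a median of 0.33 (0.25 with miR-24 and 0.02 with miR-27a). Per library it was 0.66, 0.24, 0.19 and 0.46 with miR-23a. With the control mimic it was -0.01, 0.09, 0.00 and -0.14, so these groups did not overlap. Within the numbers the median difference was 0.47, 0.13, 0.17 and 0.64, in number 1 below that of all genes. Rrp12, which exports ribosomal subunits, held 15.3, 6.60, 15.0 and 10.5 against 0, 5.29, 1.98 and 4.11 CPM (adjusted p = 0.0775). Translation factors counted 10 higher and 3 lower of 37, with Eif3e, a subunit of initiation factor 3, at 118, 145, 121 and 123 against 309, 192, 264 and 201 CPM (log2 fold change -0.87, adjusted p = 0.0623). Glycolysis and pentose phosphate enzymes had a median of 0.34, beside 0.43 with miR-24 and 0.48 with miR-27a. Cholesterol synthesis genes stood at 0.30 and aminoacyl-tRNA synthetases at 0.27. In calcium and NFAT signalling (median 0.15) Rcan1, an inhibitor of calcineurin, held 9.32, 6.38, 12.1 and 6.42 against 0, 2.06, 4.23 and 1.22 CPM (log2 fold change 1.87, adjusted p = 0.0576).

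**Figure D4:**
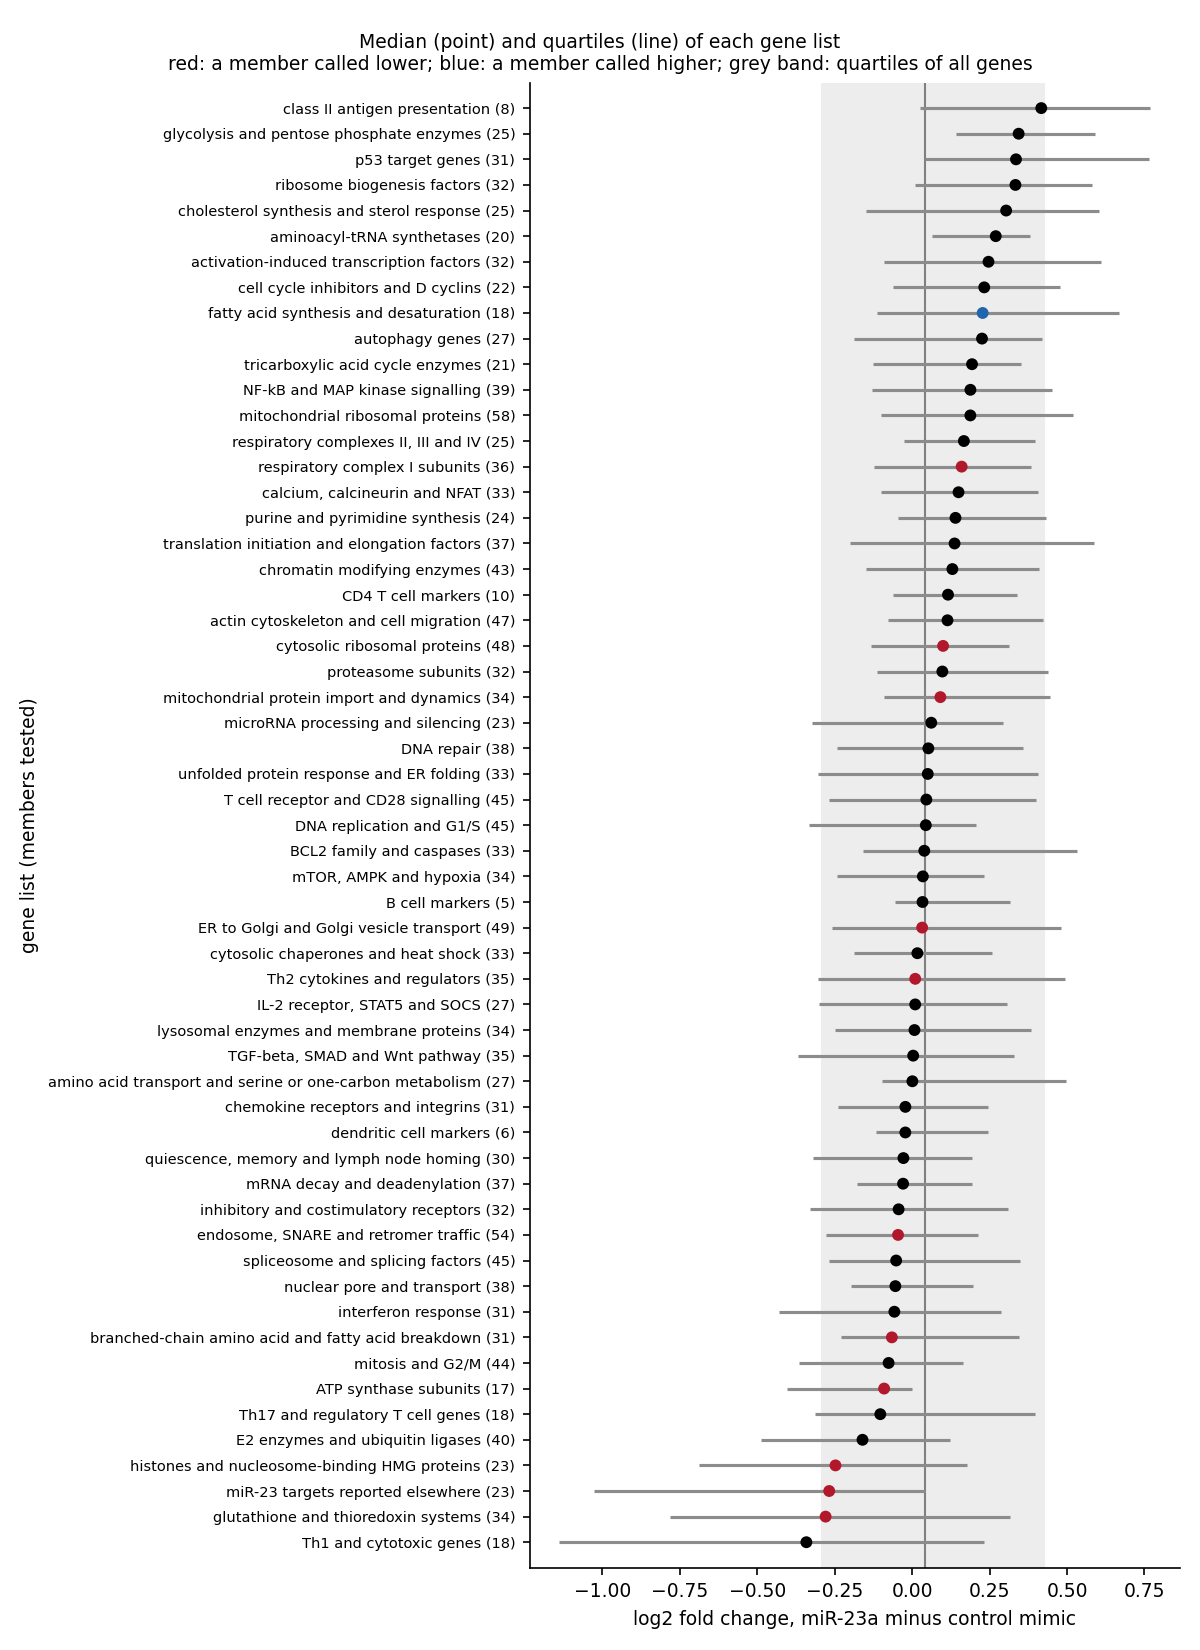
Median (point) and quartiles (line) of the log2 fold change between miR-23a and control mimic for each gene list with 5 or more members tested; the line and grey band mark the median (0.04) and quartiles of all genes tested, red points are lists with a member called lower and the blue point the list with a member called higher. The list medians run from -0.34 for Th1 and cytotoxic genes to 0.42 for class II antigen presentation, and each lies within the quartiles of all genes except that of Th1 and cytotoxic genes.

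Icos, a costimulatory receptor, stood at 253, 362, 373 and 309.8 against 374, 492, 681 and 754 CPM (log2 fold change -0.82, adjusted p = 0.105), and Lck, the kinase that starts T cell receptor signalling, at 154, 83.3, 108 and 82.9 against 16.3, 77.6, 55.0 and 27.4 (log2 fold change 1.07, adjusted p = 0.107). Egr2, a transcription factor induced by activation, stood at 29.4, 20.7, 46.4 and 42.6 against 32.6, 12.9, 22.9 and 19.7 CPM (log2 fold change 0.88, adjusted p = 0.0852), in a list with a median of 0.25. Relb, of the NF-kB family, stood at 13.5 to 28.1 against 0 to 8.38 CPM (adjusted p = 0.129), with a median of 0.19 in its list. Cxcr3, a chemokine receptor of Th1 cells, stood at 0.0764 to 7.29 against 1.07 to 48.8 CPM (adjusted p = 0.171), with a median of -0.02. Further medians were 0.23 for autophagy, 0.23 for cell cycle inhibitors and D cyclins, 0.14 for nucleotide synthesis, 0.00 for amino acid transport and one-carbon metabolism and 0.13 for chromatin modifying enzymes, again with 0 called. Lists with a median near that of all genes and 0 called members were DNA replication (0.04), DNA repair (0.05), mitosis (-0.08), splicing (-0.05), proteasome subunits (0.10), the unfolded protein response (0.05), chaperones (0.02), interferon response (-0.06), lysosomal genes (0.01), mRNA decay (-0.03), nuclear transport (-0.05), mTOR and hypoxia (0.03), and TGF-beta, SMAD and Wnt signalling (0.00). The microRNA machinery had a median of 0.06 over 23 genes and 0 called. In it Tnrc6b, a GW182 protein that recruits deadenylases to Argonaute and holds 2 8mers, stood at 949.7, 896, 769.9 and 769 against 1139.6, 1253, 1103 and 1185 CPM. The groups were apart, at a log2 fold change of -0.48 that did not pass (adjusted p = 0.167).

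Set directly against the other mimics, 343 genes (2.65%) were lower with miR-23a than with miR-24 and 258 (1.99%) lower than with miR-27a. Of the 50 genes that fell against the control mimic, 30 were also lower than with miR-24, 29 lower than with miR-27a, 21 lower than both and 12 lower than neither. Of the 21, 15 held an 8mer or 7mer-m8. The same miR-23a libraries enter all of these contrasts, and the called genes were chosen by their values in them. A low or high value by chance in those libraries carries over to each contrast. The counts among the 50 genes are therefore not independent of that choice and cannot be weighed against the shares of all genes. The same limit holds for single called genes set against the other mimics. Without the replicate number, 142 genes in all passed against miR-24 and 71 against miR-27a, in place of 697 and 382.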

How the data were processed

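Per the labels, 150000 to 800000 sorted cells gave 1 ng of input RNA, the NuGEN Ovation V2 kit amplified it, and single 50-base reads were sequenced with 4 libraries on a lane. The authors deposited 1 file of raw read counts per library, for 23337 gene symbols and 5 summary lines. Per the submitters' processing notes, Bowtie2, TopHat, DESeq and mm10 were used; versions, counter, annotation and strand are not given in the sources used here, so a gene and an antisense or overlapping partner cannot be told apart. The summary lines (64.6% to 77.6% of all counted reads) entered neither library sizes nor tests.

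Counts passing filterByExpr were TMM-scaled and fitted in R 4.3.3 with edgeR 4.0.16 (robust quasi-likelihood, group plus replicate number, 16 libraries, two-sided, Benjamini-Hochberg over 12952 genes, threshold 0.05). The fit was tested on simulated data. Alternatives used DESeq2 1.42.0 and limma 3.58.1, other scalings and filters, no replicate number, and each library left out. Same-numbered miR-23a and control libraries deviated together from their group means in 3 of 4 pairs (r over 4746 genes with mean log2-CPM above 5: 0.163, -0.12, 0.332 and 0.315), so the numbers are not shown to pair the libraries. Values without them are given for the calls against the control mimic and for the totals against the other mimics. List medians and gene values against the other mimics are with them. Some list medians changed sign without them, among them splicing (0.14), Th2 genes (-0.11), endosome genes (0.01) and TGF-beta signalling (-0.05). No 2 libraries of these groups were identical.

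The comparison, the 61 gene lists and the tests were chosen with earlier results of these data known. Named genes are up to 10 called genes with the lowest and 10 with the highest fold change (mean log2-CPM of at least 3, no overlap with control replicates 2 to 4), up to 3 called members of each list or else the 2 with the smallest p, the 6 called 8mer genes with the smallest p, and Dgcr8, Tbx21, Il4, Gata3, Maf and Rn45s. Every other named gene, including each other called gene, was named after its values were seen. Of the symbols, 20953 matched GENCODE M21 directly, 1896 through an older symbol and 488 not.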

Additional observations from a re-analysis of the deposited data

Results flagged for a closer look

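In 112 groups of 4 libraries (the called genes and the 8mer shift, in each of the 2 groups) 5 held 1 library far from the other 3, and chance marks about 1 group in 20. Il9 stood at 39.8 CPM in control replicate 4 and at 0 to 3.96 in the other controls. Tmed5 stood at 393 CPM in control replicate 4, against 175 to 212. Hmgn2 was low in control replicate 4, at 86.3 CPM against 195 to 212, and so was Arrdc3, at 27.0 CPM against 74.6 to 81.4. Pde4b stood at 65.1 CPM, worth 4 reads, in the shallow control replicate 1, against 185 to 198 in the others. Without control replicate 4 the adjusted p of Il9 was 0.306, that of Tmed5 0.188, that of Hmgn2 0.00553 and that of Arrdc3 0.0457; without control replicate 1 that of Pde4b was 0.0129 (edgeR).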

How the results depend on the processing

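The numbers of called genes depended on the processing. Without the replicate block 0 genes rose and 17 fell, 142 passed against miR-24 and 71 against miR-27a; adding the loss of control replicate 1, an alternative chosen after seeing the data, gave 0, 15, 147 and 70. With both libraries numbered 1 left out, the counts were 0, 24, 300 and 188. With only the 8 miR-23a and control libraries, 4 rose and 30 fell, 26 of the 30 among the 50 and 0 of the 4 among the 5. DESeq2 gave 172 and 192 (49 of the 50; 1 had no adjusted p), with 1060 against miR-24 and 713 against miR-27a, and limma voom with sample weights 0 and 32, with 458 against miR-24. With no filter on low counts 15 rose. Over the 8 fits that left out 1 library, 0 to 179 genes rose, 12 to 155 fell, 262 to 769 passed against miR-24 and 151 to 414 against miR-27a. RLE size factors (7 and 45) and leaving out Rn45s (6 and 52) stayed within 1.5 times for the genes that fell. The 8mer median minus the no-site median stayed between -0.47 and -0.35 in all fits and was -0.41 with all annotated UTRs of a gene joined. No called gene changed sign in a fit that gave it an adjusted p. Recomputed list medians moved by more than the spread between miR-23a libraries in 53 cases and by less in 916. Depth limits control replicate 1, where genes under 48.8 CPM rest on fewer than 3 reads; the causes of these changes were not tested.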
